A study of Harpegnathos saltator with 32 samples.

Results

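Brains of gamergates and workers of the ant Harpegnathos saltator were compared after injection of a control siRNA against GFP, in the third round of the experiment. The 8 brains compared were 5 gamergate brains (replicates 5 to 9) and 3 worker brains (replicates 6 to 8), out of 32 brains in the series, and were chosen because the description label places both castes of round 3 on the same sequencing run, 200626. In round 2 the gamergate brains were on another run than the worker controls. Each library held polyadenylated RNA of the central brain of 1 ant, taken on day 10, 10 hours after dicer-substrate siRNA in glucose with a transfection reagent had been injected into the head, per the labels. The labels give the gamergates as d10 gamergate (dueler) and the workers as d10 worker, the control is spelled GRP in the protocol and GFP in the titles, and the ants' colony is not given. Every control ant had therefore been injected and transfected, and an uninjected brain was not among the groups compared. Brains given siRNA against Kr-h1 in the same round and run (4 gamergates and 3 workers) and the control brains of round 2 (4 gamergates and 5 workers) are used where a value in other ants is given.

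Gamergates are workers that have become reproductive without a change of body form. In Harpegnathos, workers that lose their reproductive females fight in antennal duels, and the winners activate their ovaries and take over egg laying. The brain of an insect is built of neurons, glia that supply and insulate them and clear transmitter, and neurosecretory cells that release peptides such as corazonin and insulin-like peptides. Corazonin is known in this ant as a neuropeptide linked to the behaviour of workers, and juvenile hormone acts on the insect brain in part through the zinc finger factor Kr-h1. Photoreceptors lie in the eyes, and genes known from them were measured here as markers of another tissue.

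Levels are given in FPKM, which count fragments per kilobase of transcript and were scaled for sequencing depth before deposit. Reads recovered from the steps between the values ran from 6.45 to 10.46 M in gamergate and from 8.06 to 10.86 M in worker libraries. These sums leave out genes whose step was not recovered, so they are not the full depth. Such genes held 28.3% to 55.5% of the FPKM sum in gamergate and 26.3% to 32.8% in worker libraries. Neuronal markers were present in all 8 brains, with Syt1 at 89.2 to 113.0 FPKM and nSyb at 140.0 to 189.0 FPKM, and the glial factor repo lay at 26.1 to 36.9 FPKM, as in neural tissue. The values also moved with gene length. The Spearman correlation across genes of a library's log2 deviation with gene span was -0.06, 0.26, 0.23, -0.04 and 0.27 in gamergates 5 to 9, against -0.24, -0.10 and -0.35 in workers 6 to 8, so long genes read relatively higher in gamergates 6, 7 and 9 and lower in the workers. The part of this trend in the caste differences below was tested only by the fit that removes it. Its values are given for several lists and for Lop1, but not for each called gene.

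Kr-h1 (LOC112589664), the gene that the other siRNA targeted, did not separate the castes in these controls. It lay at 0.571, 0.683, 0.480, 0.676 and 0.809 FPKM in gamergates, against 0.611, 0.433 and 0.733 FPKM in workers, and the groups overlapped. The difference of mean log2(FPKM + 0.5) was 0.07 (exact two-sided permutation p = 0.571 over 56 arrangements, where 0.0357 is the smallest p they allow). The gene lay below the filter of the test across genes, and its reads numbered only 22 to 52 per library. In the round 2 controls Kr-h1 averaged 3.31 FPKM in gamergates (0.995 to 7.57) and 1.1 FPKM in workers (0.369 to 2.54). The castes overlapped there and were on different runs, and that difference was not tested.

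Across the genome a small set of genes separated the castes. Of 9213 genes with at least 1 FPKM in at least 3 of the 8 libraries, 65 passed limma's test at a Benjamini-Hochberg adjusted p under 0.05, which is 0.706% of those tested. Of these, 42 (0.456%) were higher in gamergates and 23 (0.25%) were lower. The log2 differences ran between 0.29 and 2.76 for those that rose, with a median of 0.58, and between -0.34 and -3.09 for those that fell, with a median of -0.64. They exceeded 1 in size for 7 genes that rose and 8 that fell. In each of the 65 genes all gamergates lay on one side of all workers, while 1222 of all 9213 genes (13.3%) had non-overlapping castes. At an unadjusted p under 0.05 there were 1759 genes, and the median log2 difference of all genes was -0.02. A fold change here is a difference on the log2(FPKM + 0.5) scale, which understates that of low genes, and in whole brains fewer cells of a type and less RNA per cell cannot be told apart.

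**Figure D1:**
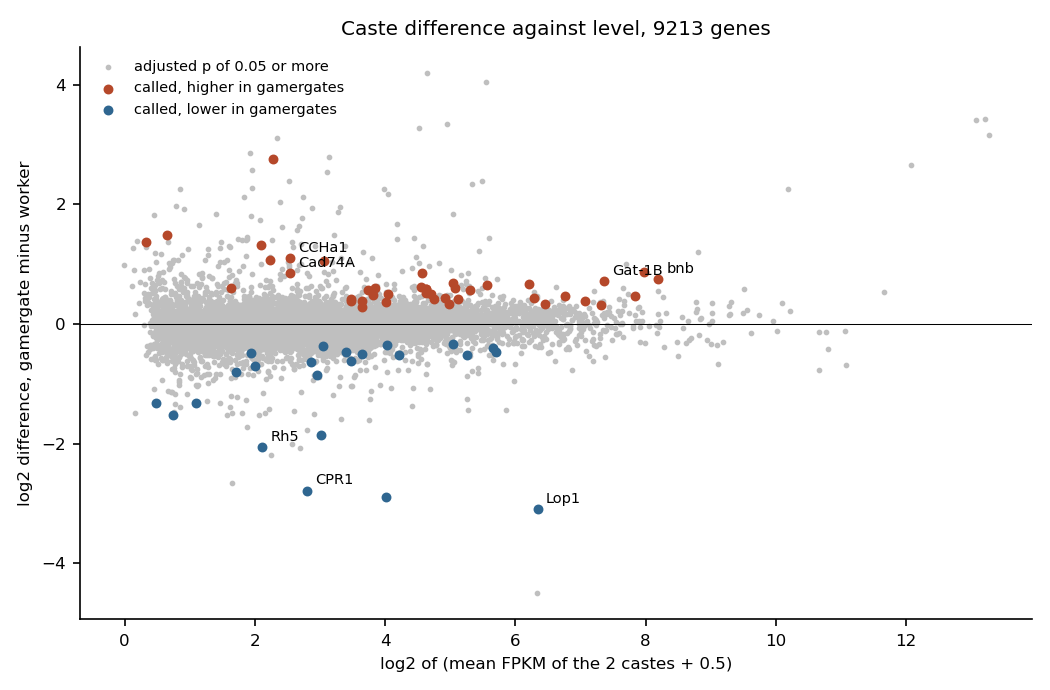
The log2 difference of each of the 9213 genes (gamergate minus worker, vertical) is plotted against the log2 of its mean level over the castes (horizontal), with the 42 genes that rose and the 23 that fell coloured. Among the called genes with a symbol, Lop1, CPR1 and Rh5 lie lowest, at -3.09, -2.78 and -2.05, and 50 of the called genes differ by less than 1 in size.

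The size of this set depended on single brains. It came to 30, 18, 1, 167 and 35 genes without gamergates 5, 6, 7, 8 and 9, and to 16, 17 and 3 genes without workers 6, 7 and 8. None of the 65 genes could turn its direction in these 8 fits, since the castes did not overlap for any of them. Only LOC105182697 was called in all 8 fits, and 31 genes were called in 1 of the 8 or in none. Called in 1 of the 8 were Nmdar1, nSyb, Gat-1B, bnb, Cad74A, Rh50, Rtnl1, Atpalpha, T48, Mob2, ATPsyngamma, FASN1, RpL30 and Trs33. Apart from LOC105182697, all genes named below as called missed the threshold without gamergate 7, and without worker 8 they did as well. The called genes also differed in span. Its median was 11188 bases for the 42 that rose and 2139 bases for the 23 that fell, against 4374 bases for all genes tested. Once the dependence on span had been taken out of every library by loess, 17 genes passed (8 higher, 9 lower), 16 of them among the 65. Adjusted p-values are those of limma with Benjamini-Hochberg adjustment over all genes tested, and p-values measure the spread between single brains.

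The gene with the smallest p was LOC105182697, which has no name in the table used here. It lay at 1.58, 1.24, 1.47, 1.13 and 1.11 FPKM in gamergates, against 0.192, 0.145 and 0.242 FPKM in workers, and every gamergate was above every worker. The log2 difference was 1.38 ± 0.16 (SE; adjusted p = 0.00332), and it was 0.78 in the Kr-h1 siRNA brains of the same round (adjusted p = 0.0458). Over the 8 fits that left out a brain, the adjusted p of LOC105182697 lay between 0.00728 and 0.0364. The unnamed gene LOC105189588 had the next smallest p among unnamed genes that rose, with a mean of 1.82 ± 0.520 FPKM in gamergates (SD, n = 5) and 0.318 ± 0.124 FPKM in workers (SD, n = 3), and was called in 6 of the 8 fits. Both LOC105182697 and LOC105189588 met the filter of at least 1 FPKM only through the gamergates, since every worker lay below it, near the floor. Other called genes, Rh5 among them, likewise met it only through the caste in which they were high, in some cases the workers. Among unnamed genes that fell, LOC112590239, annotated as a long noncoding RNA, averaged 5.03 ± 0.447 FPKM in gamergates (SD, n = 5) and 9.45 ± 1.13 FPKM in workers (SD, n = 3), a log2 difference of -0.85. LOC105187285 averaged 43.1 ± 3.17 FPKM in gamergates (SD, n = 5) and 59.9 ± 4.29 FPKM in workers (SD, n = 3), a log2 difference of -0.47.

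Among the peptides that brain neurons release, CCHa1 rose in gamergates. CCHa1 (LOC105181279), a neuropeptide gene, lay at 7.89, 8.48, 6.92, 7.76 and 5.87 FPKM in gamergates, against 3.83, 3.44 and 2.37 FPKM in workers. The castes did not overlap, and the log2 difference was 1.10 ± 0.16 (SE; adjusted p = 0.0179). The call of CCHa1 was lost without gamergate 7 (adjusted p = 0.0522) and without worker 8 (0.0824). It was the only one of 12 neuropeptide genes to pass. Corazonin (Crz) lay at 44.9, 45.0, 30.9, 42.9 and 25.3 FPKM in gamergates, against 17.5, 22.6 and 14.6 FPKM in workers. The castes did not overlap for Crz, but the log2 difference of 1.02 ± 0.28 missed the threshold (SE; adjusted p = 0.0868). Crz overlapped between the castes in the Kr-h1 siRNA brains (log2 difference 0.71), and in the round 2 controls it averaged 41.3 FPKM in gamergates and 41.8 FPKM in workers (log2 difference 0.08). The insulin-like peptide gene ILP-2 lay at 11.0, 11.2, 11.8, 11.3 and 6.85 FPKM in gamergates, against 15.8, 30.5 and 22.2 FPKM in workers, with a log2 difference of -1.07 ± 0.24 that also missed it (SE; adjusted p = 0.0561). The members thus had values in both directions, 5 of the 12 above 0 and 7 below, and their median log2 difference was -0.14, or -0.05 without gamergate 9 and -0.09 without worker 7.

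None of 7 neuropeptide receptor genes and none of 9 genes of peptide processing and breakdown passed. Of the processing genes 6 lay above 0, led by the furin protease gene Fur2 at 12.1 FPKM on average in gamergates and 7.72 FPKM in workers (log2 difference 0.60, adjusted p = 0.0568). The log2 difference of Fur2 was -0.18 in the Kr-h1 siRNA brains of round 3. The peptidase gene Nep2 averaged 4.74 FPKM in gamergates and 7.45 FPKM in workers (log2 difference -0.60, adjusted p = 0.267). None of 16 tested genes of juvenile hormone and ecdysone signalling passed, with log2 differences between -0.38 for the nuclear receptor Hr38 and 0.23 for the ecdysone receptor partner usp. The juvenile hormone methyltransferase gene jhamt was at 5.83, 0, 4.45, 6.97 and 0.0238 FPKM in gamergates, against 5.17, 5.27 and 0 FPKM in workers, so it was present or near absent in brains of both castes. Of 22 insulin and TOR genes none passed, and 16 lay below 0, with a median log2 difference of -0.05, or -0.07 without gamergate 9, -0.03 without worker 6 and -0.02 without worker 7.

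**Figure D2:**
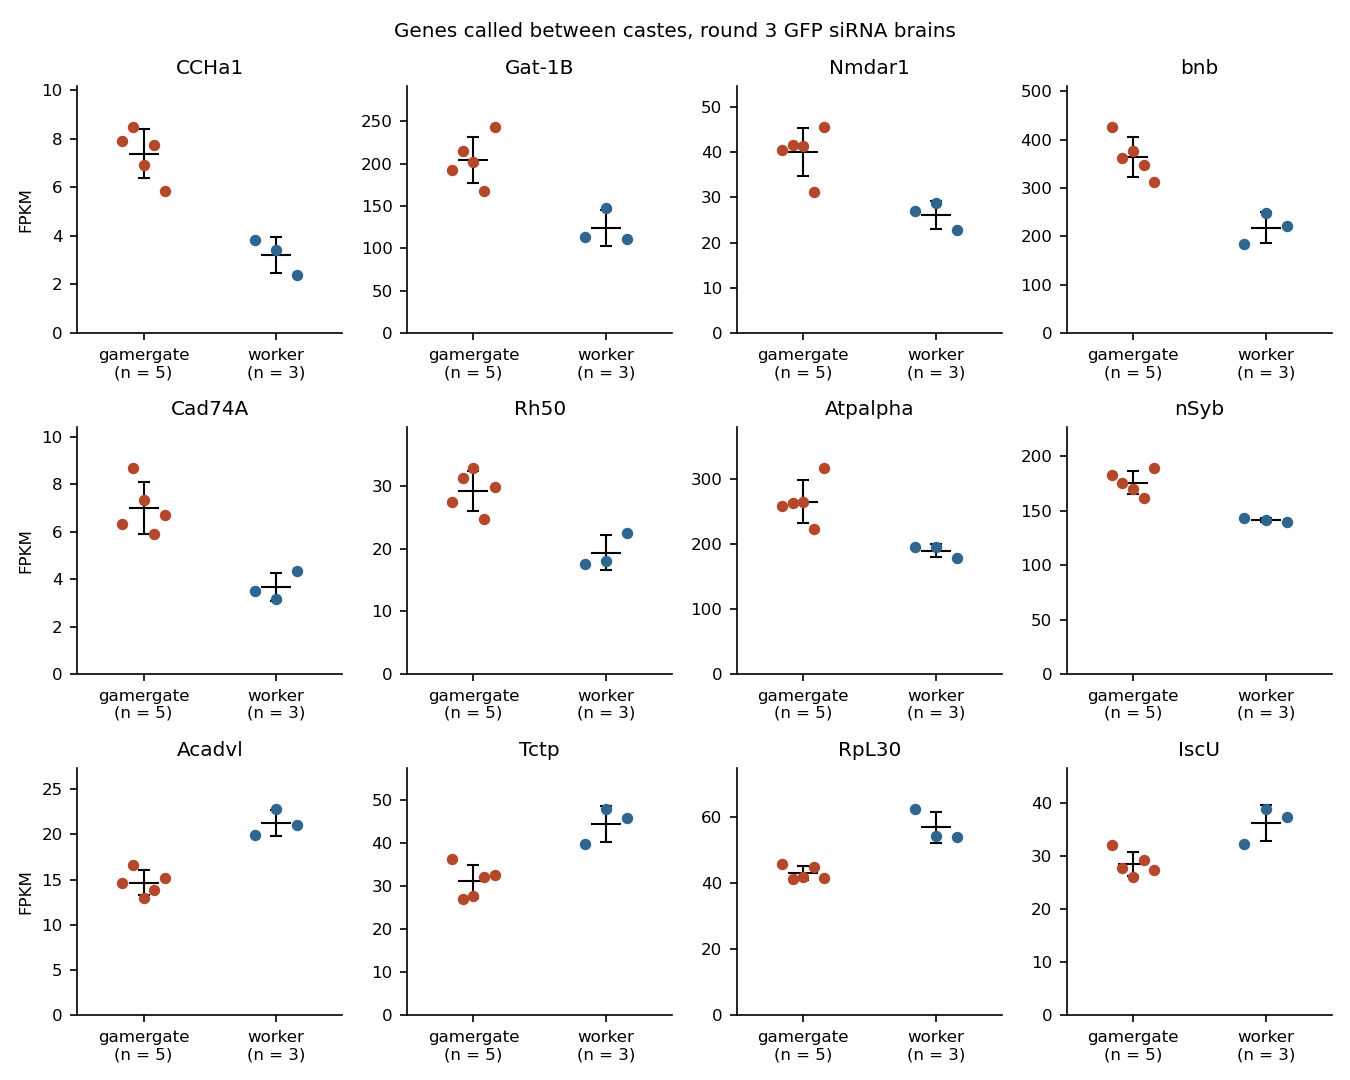
FPKM (vertical, starting at 0) of 12 genes called between the castes, 1 point per brain, with the mean and SD in black and 5 gamergates to the left of 3 workers. In every panel all gamergates lie on one side of all workers, with CCHa1 from 5.87 to 8.48 FPKM in gamergates and from 2.37 to 3.83 FPKM in workers.

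Of the genes that act at synapses most had values above 0 in these controls, where 45.5% of all genes tested did, and Nmdar1 and nSyb passed. Nmdar1 (LOC105182141), an NMDA-type glutamate receptor subunit, was at 40.4, 41.5, 41.3, 31.1 and 45.5 FPKM in gamergates, against 27.0, 28.7 and 22.7 FPKM in workers. Its log2 difference was 0.60 ± 0.13 (SE; adjusted p = 0.0482), with the lowest gamergate still above the highest worker. Of 26 genes of fast glutamate, GABA and acetylcholine transmission, 25 lay above 0 and Nmdar1 alone passed, with a median of 0.18. The muscarinic receptor gene mAChR-B averaged 31.1 FPKM in gamergates and 11.2 FPKM in workers (log2 difference 1.43, adjusted p = 0.129). The GABA receptor subunit gene Lcch3 averaged 1.64 FPKM in gamergates and 0.859 FPKM in workers (log2 difference 0.64, adjusted p = 0.0925).

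Among 37 genes of transmitter release, neuronal channels and synaptic adhesion, 31 lay above 0 with a median of 0.11, and nSyb passed. nSyb, the neuronal synaptobrevin of synaptic vesicles, was at 183.0, 175.0, 170.0, 162.0 and 189.0 FPKM in gamergates, against 143.0, 141.0 and 140.0 FPKM in workers, a log2 difference of 0.31 ± 0.06 (SE; adjusted p = 0.0447). These are long genes, with a median span of 95600 bases against 4374 bases for all genes tested, and the trend over span moved with caste. With it removed, the median of the 37 was 0.00 and that of the transmission genes 0.10. Without worker 8 the median of the 37 was 0.04. In the Kr-h1 siRNA brains of the same round and run, 16 of the 37 release and adhesion genes lay above 0 with a median of -0.04, and 13 of the 26 transmission genes with a median of 0.00. Of 21 biogenic amine genes none passed and 16 lay above 0, with a median of 0.13, or 0.05 with the span trend removed and 0.06 without worker 8. Of 13 genes known from mushroom body neurons none passed and 10 lay above 0, with a median of 0.13, or 0.02 with the span trend removed, 0.07 without worker 8 and 0.21 without worker 6. After Kr-h1 siRNA, 8 of the 21 amine genes and 8 of the 13 mushroom body genes lay above 0, with medians of -0.02 and 0.02.

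Of the transmitter transporters that glia use, Gat-1B rose in gamergates. Gat-1B, a GABA transporter gene, was at 192.68, 214.86, 201.54, 168.21 and 242.69 FPKM in gamergates, against 112.59, 148.04 and 110.64 FPKM in workers. The castes did not overlap for Gat-1B, and the log2 difference was 0.72 ± 0.15 (SE; adjusted p = 0.0447). The related gene Gat-a was at 30.2, 26.9, 27.5, 19.7 and 33.9 FPKM in gamergates, against 13.4, 15.2 and 13.3 FPKM in workers, and just missed the threshold (log2 difference 0.94 ± 0.20 SE, adjusted p = 0.0511). Eaat-2, a glutamate transporter gene, averaged 45.4 ± 8.70 FPKM in gamergates (SD, n = 5) and 25.4 ± 5.54 FPKM in workers (SD, n = 3), with gamergate 8 at 31.5 FPKM below worker 7 at 31.8 FPKM (log2 difference 0.82, adjusted p = 0.0827). Of 20 glial genes 12 lay above 0 and 1 passed, with a median of 0.04. That median was 0.08 without gamergate 5 and without gamergate 9, 0.01 without gamergate 6, 0.02 without worker 6 and 0.11 without worker 8. In the Kr-h1 siRNA brains of round 3, 6 of the 20 glial genes lay above 0, with a median of -0.08. The glial factor repo had a log2 difference of -0.01 (adjusted p = 0.985). Without Gat-1B, the other 19 genes summed to 997.0 to 1260 FPKM in gamergates, against 920.0 to 996.0 FPKM in workers, so that the lowest gamergate and the highest worker were nearly equal, and the part of glial content in the rise of Gat-1B was not tested.

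The gap junction genes Inx2 and Inx3 lay above the workers in all 5 gamergates without passing. Inx3 was at 55.738, 49.369, 59.433, 39.592 and 42.878 FPKM in gamergates, against 26.254, 31.991 and 22.968 FPKM in workers (log2 difference 0.85, adjusted p = 0.0577). Inx2 averaged 41.7 ± 12.5 FPKM in gamergates (SD, n = 5) and 21.7 ± 3.45 FPKM in workers (SD, n = 3), with an adjusted p of 0.102. For the third innexin tested, ogre, the castes overlapped and the log2 difference was 0.49 (adjusted p = 0.55).

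Other named genes that rose included bnb, known in the fly from glia of the developing nervous system. bnb was at 426.0, 362.0, 377.0, 348.0 and 313.0 FPKM in gamergates, against 184.0, 249.0 and 221.0 FPKM in workers, a log2 difference of 0.75 ± 0.16 (SE; adjusted p = 0.0492). Cad74A, a cadherin gene, was at 6.33, 8.67, 7.35, 5.90 and 6.68 FPKM in gamergates, against 3.48, 3.18 and 4.34 FPKM in workers (log2 difference 0.84, adjusted p = 0.0477). Rh50, related to ammonium transporters, averaged 29.3 ± 3.22 FPKM in gamergates (SD, n = 5) and 19.4 ± 2.79 FPKM in workers (SD, n = 3), with a log2 difference of 0.58. Atpalpha, the catalytic subunit of the sodium pump, averaged 266.0 ± 33.3 FPKM in gamergates (SD, n = 5) and 190.0 ± 9.51 FPKM in workers (SD, n = 3), with a log2 difference of 0.48. Rtnl1, a reticulon of the endoplasmic reticulum, rose by 0.58 and sky, which acts in synaptic vesicle traffic in the fly, by 0.44 on the log2 scale. Smaller gains passed for T48 (0.41), Mob2 (0.41), the kinase gene trc (0.38), the ATP synthase subunit gene ATPsyngamma (0.38) and the fatty acid synthase gene FASN1 (0.34). ATPsyngamma was the only one of 52 oxidative phosphorylation genes to pass, and 29 of these lay below 0.

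The named genes that fell, apart from those of the eye and cuticle lists, moved by less than 1 on the log2 scale. Acadvl, a mitochondrial fatty acid dehydrogenase gene, was at 14.632, 16.593, 12.996, 13.916 and 15.154 FPKM in gamergates, against 19.861, 22.759 and 21.147 FPKM in workers, a log2 difference of -0.52 ± 0.08 (SE; adjusted p = 0.02). Tctp, a conserved protein tied to growth, averaged 31.2 ± 3.85 FPKM in gamergates (SD, n = 5) and 44.5 ± 4.18 FPKM in workers (SD, n = 3), with a log2 difference of -0.51. IscU, a scaffold for building iron-sulphur clusters, averaged 28.5 ± 2.24 FPKM in gamergates (SD, n = 5) and 36.2 ± 3.45 FPKM in workers (SD, n = 3), with a log2 difference of -0.34. Ssb-c31a, a transcriptional coactivator gene, differed by -0.50, and Trs33, a subunit of a vesicle tethering complex, by -0.47.

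Genes of the cytosolic ribosome lay lower in gamergates almost without exception, though 1 passed. RpL30 was at 45.8, 41.3, 42.0, 44.9 and 41.6 FPKM in gamergates, against 62.5, 54.5 and 54.0 FPKM in workers, and the castes did not overlap (log2 difference -0.40 ± 0.08 SE, adjusted p = 0.0447). Of 57 ribosomal protein genes 56 lay below 0, and the median was -0.27. RpL28 averaged 117.0 FPKM in gamergates and 176.0 FPKM in workers (log2 difference -0.62, adjusted p = 0.0646), and RpS26 averaged 114.0 FPKM in gamergates and 156.0 FPKM in workers (log2 difference -0.46, adjusted p = 0.0561). These are short genes, with a median span of 1556 bases, and with the span trend removed their median was -0.15. In the Kr-h1 siRNA brains of round 3 their median was -0.11, with 9 of 57 above 0. Proteasome genes, with a median span of 2137 bases, had 19 of 30 above 0, a median of 0.03 and none that passed. Their median was 0.00 without gamergate 5 and 0.11 with the span trend removed.

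**Figure D3:**
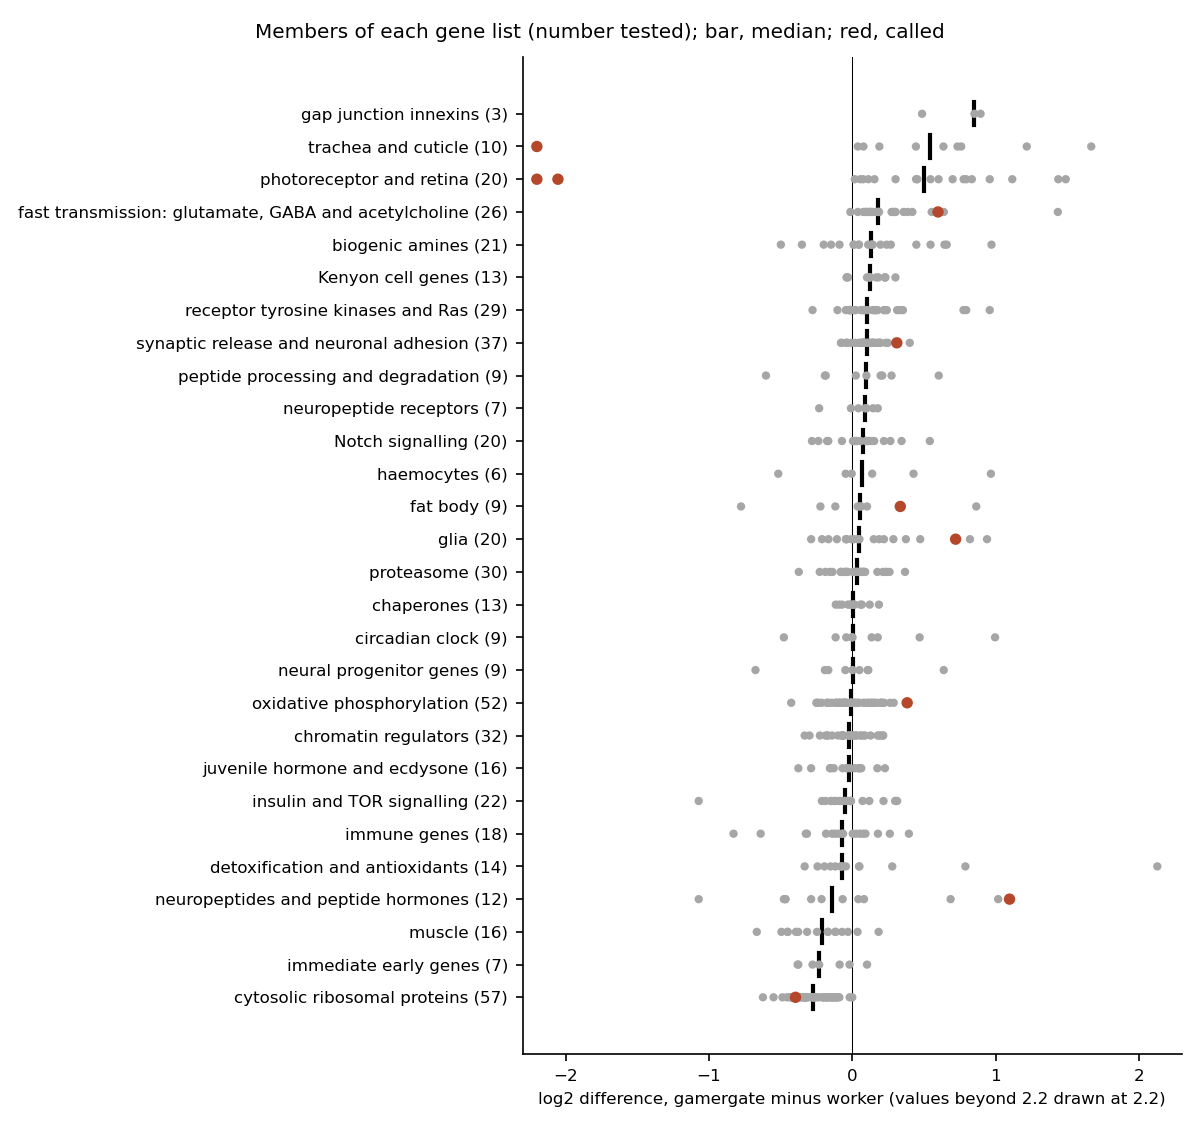
Each point is the log2 difference (gamergate minus worker, horizontal) of 1 member of a gene list, with the list's median as a black bar and called genes in red, and the number tested in brackets. Values beyond 2.2 in size are drawn at 2.2. The 57 ribosomal genes sit at the bottom with a median of -0.27, and the 26 fast transmission genes have a median of 0.18. In the retinal list the called genes Lop1 and Rh5 lie far to the left of the other members.

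The opsins divided. Lop1 (LOC105189783), a long-wavelength opsin gene, was at 20.4, 19.8, 27.1, 16.4 and 3.43 FPKM in gamergates, against 183.0, 59.7 and 190.0 FPKM in workers. The lowest worker was above the highest gamergate, and the log2 difference was -3.09 ± 0.57 (SE; adjusted p = 0.0332), with 0.0539 without gamergate 7 and 0.191 without worker 8. Rh5, named after a short-wavelength opsin of the fly, was at 0.938, 1.55, 0.815, 1.03 and 0.476 FPKM in gamergates, against 4.55, 2.53 and 12.9 FPKM in workers (log2 difference -2.05 ± 0.39 SE, adjusted p = 0.0359). Rh5 met the filter only through the workers, since among gamergates only 6 and 8 reached 1 FPKM. The calls of Lop1 and Rh5 were kept when the span trend was removed, where Lop1 was at -3.07.

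The second long-wavelength opsin gene, Lop2, did not follow. It was at 2.25, 33.9, 30.7, 40.2 and 30.1 FPKM in gamergates, against 4.04, 4.18 and 39.6 FPKM in workers, so gamergate 5 and workers 6 and 7 were low and the other brains high. The arrestin gene Arr2, which shuts off rhodopsin, was low in gamergate 5 at 32.1 FPKM and in worker 7 at 53.3 FPKM, and ran from 299.0 to 490.0 FPKM in the other gamergates, against 173.0 and 613.0 FPKM in workers 6 and 8. Arr1 was at 3.73 FPKM in gamergate 5 and at 69.5 to 98.7 FPKM in the other gamergates, against 12.9, 5.00 and 65.5 FPKM in workers. The level of retinal genes thus differed between brains of the same caste. Summed over the 23 retinal genes it was 183.0 to 822.0 FPKM in gamergates and 245.0 to 1070.0 FPKM in workers, with trpl and prom listed at 0 in at least 1 brain. Its part in the fall of Lop1 and Rh5 was not tested. The median of the 20 retinal genes tested was 0.50, and it was 0.80 without gamergate 5, 0.21 without worker 7 and 0.87 without worker 8. Of the 20 genes 18 lay above 0 and none of these passed, among them sev, a receptor tyrosine kinase of the eye, with 8.51 ± 1.14 FPKM in gamergates (SD, n = 5) and 4.73 ± 0.998 FPKM in workers (SD, n = 3; log2 difference 0.79, adjusted p = 0.0797). In the Kr-h1 siRNA brains of round 3, 7 of the 20 lay above 0, with a median of -0.11.

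CPR1 had the largest fall among called genes with a symbol outside the retinal list. It was at 2.29, 0.526, 1.25, 0.878 and 1.37 FPKM in gamergates, against 6.72, 16.9 and 11.6 FPKM in workers, a log2 difference of -2.78 ± 0.51 (SE; adjusted p = 0.0332). CPR1 was placed by its symbol among the genes of trachea and cuticle, where the 9 other tested genes lay above 0 and none passed. The median of the 10 tested genes was 0.54, and lay between 0.29 and 0.65 on leaving out 1 brain. In the Kr-h1 siRNA brains of round 3 it was -0.36, with 1 of the 10 above 0. Without CPR1, the 10 genes of this list summed to 46.1 to 217.0 FPKM in gamergates and to 40.1 to 91.9 FPKM in workers, and the part of such tissue in the result was not tested. Vgn, which was picked out after its values were seen and has no description in the table used here, was at 3.54, 2.57, 11.2, 11.0 and 1.55 FPKM in gamergates, against 56.3, 81.8 and 324.0 FPKM in workers. The castes did not overlap for Vgn, yet the spread was wide and the log2 difference of -4.50 ± 1.10 missed the threshold (SE; adjusted p = 0.0646). In the Kr-h1 siRNA brains Vgn averaged 19.0 FPKM in gamergates and 20.8 FPKM in workers, and the castes overlapped. The gamergates ran from 0.154 to 41.7 FPKM there, and the log2 difference was -1.323 ± 1.155 (SE; adjusted p = 0.609). In the round 2 controls Vgn had the opposite sign, at 10.4 FPKM in gamergates and 3.51 FPKM in workers (log2 difference 1.22, adjusted p = 0.392).

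**Figure D4:**
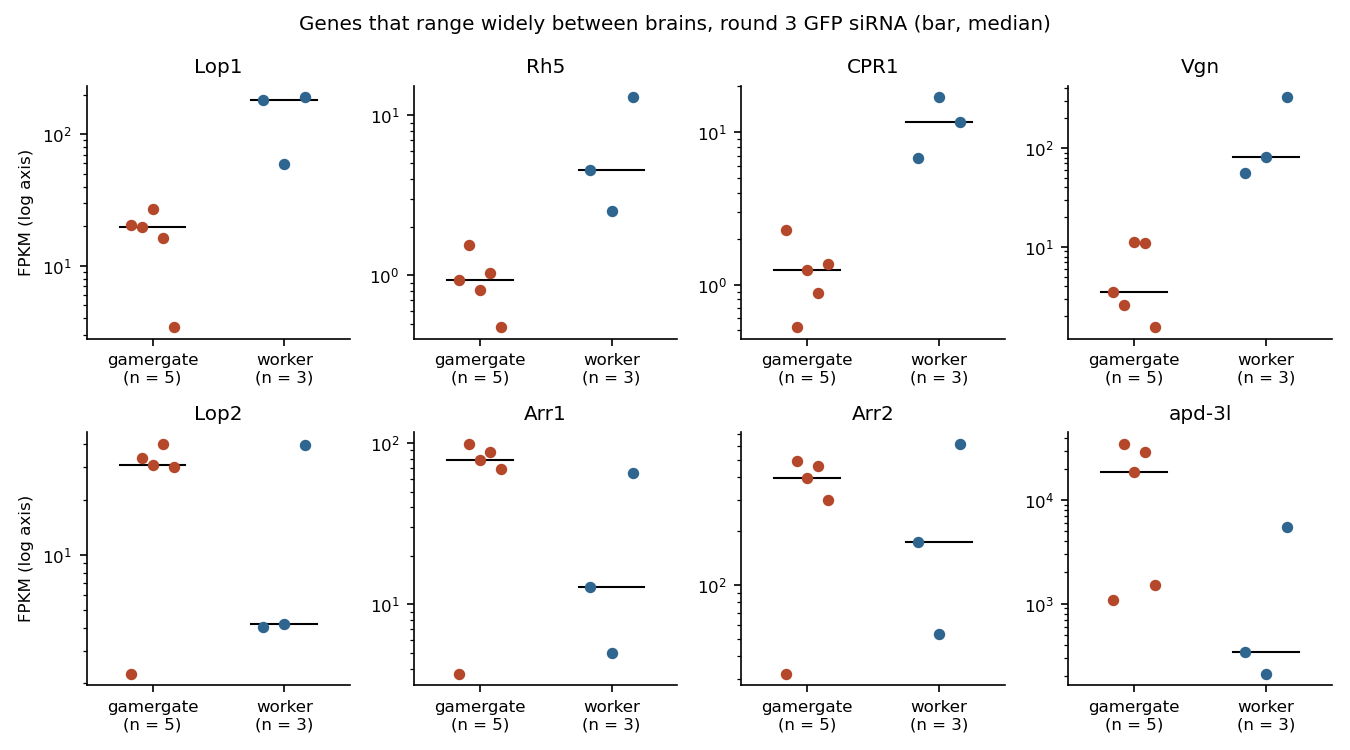
FPKM (vertical, log axis) of 8 genes that range widely between brains, 1 point per brain with the median as a bar, gamergates to the left of workers. Lop1, Rh5, CPR1 and Vgn are lower in all 5 gamergates than in all 3 workers, while Lop2, Arr1, Arr2 and apd-3l overlap between the castes, with gamergate 5 the lowest of the gamergates in each.

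The summed markers of muscle, fat body and blood cells overlapped between the castes. The 17 muscle genes summed to 274.0 to 326.0 FPKM in gamergates and to 318.0 to 390.0 FPKM in workers, and 14 of the 16 tested lay below 0 with none called. The 10 fat body genes summed to 1750.0 to 3070.0 FPKM in gamergates and to 2360.0 to 3070.0 FPKM in workers, with FASN1 called, and the 7 blood cell genes to 84.1 to 122.0 FPKM in gamergates and 69.6 to 97.7 FPKM in workers with none called. A group of 5 abundant genes, chosen after their values were seen and including apd-3l, took 2.47% to 40.0% of all FPKM in gamergates and 0.526% to 12.7% in workers. apd-3l alone was at 1080, 34800, 18500, 29100 and 1500 FPKM in gamergates, against 344.0, 211.0 and 5500 FPKM in workers, and its castes overlapped.

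The remaining lists held no called gene. Of 9 clock genes 5 lay above 0. The clock repressor per averaged 5.15 ± 1.15 FPKM in gamergates (SD, n = 5) and 2.35 ± 0.760 FPKM in workers (SD, n = 3; log2 difference 1.00, adjusted p = 0.0636), and the clock activator Clk had a log2 difference of 0.14 (adjusted p = 0.437). In the Kr-h1 siRNA brains of round 3, per averaged 3.02 FPKM in gamergates and 3.34 FPKM in workers (log2 difference -0.06). Of 9 neural progenitor genes 5 lay above 0, and dpn, a neural stem cell factor, differed by 0.64 (adjusted p = 0.219). Of 7 activity-response genes 6 lay below 0 with a median of -0.23, or -0.12 without gamergate 5. Notch genes (15 of 20 above 0, median 0.08) and receptor tyrosine kinase and Ras genes (21 of 29, median 0.11) lay mostly above 0, with medians of 0.04 and 0.06 once the span trend was removed. The Notch median was 0.05 without gamergate 6 and without worker 8, and that of the kinase and Ras genes was 0.17 without worker 7. After Kr-h1 siRNA, 10 of the 20 Notch genes and 12 of the 29 kinase and Ras genes lay above 0, with medians of 0.00 and -0.04. Immune genes (8 of 18 above 0), chromatin regulators (14 of 32), chaperones (7 of 13) and detoxification genes (5 of 14) had medians between -0.07 and 0.01, and between -0.11 and 0.01 on leaving out 1 brain.

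Most of the 65 genes had the same direction in brains of other ants. The Kr-h1 siRNA brains of round 3, on the same run, do not enter the log2 differences of the controls but lend their spread to the test. In them 58 of 65 genes (89.2%) had the sign they had in the controls, against 55.4% of all 9213 genes. The 8 control libraries fitted alone called 15 genes, 8 of them among the 65, and these 15 all had the same sign in the Kr-h1 siRNA brains, as did 14 of them in the round 2 controls. Of the 42 that rose, 39 kept the sign and 9 passed there too, while of the 23 that fell, 19 kept it and none passed. In that contrast 69 genes (0.749%) passed in all. CCHa1 averaged 9.02 ± 1.24 FPKM in gamergates (SD, n = 4) and 4.01 ± 0.788 FPKM in workers (SD, n = 3) after Kr-h1 siRNA, a log2 difference of 1.09 (adjusted p = 0.0401). Lop1 averaged 11.6 ± 3.75 FPKM in gamergates (SD, n = 4) and 48.7 ± 22.2 FPKM in workers (SD, n = 3) there, a log2 difference of -1.98 (adjusted p = 0.13). Trs33 had the opposite sign there, at 12.2 ± 0.784 FPKM in gamergates (SD, n = 4) and 9.59 ± 0.387 FPKM in workers (SD, n = 3). T48 and trc also had the opposite sign there, with log2 differences of -0.10 and -0.03.

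The difference of the caste effect between the siRNAs was tested directly, and 0 genes passed in limma, with 1139 at an unadjusted p under 0.05. limma voom on recovered reads also called 0, while the fit without a filter called 1 and the fit of all 32 libraries with a batch term, which draws on round 2 as well, called 1581. Trs33 had an unadjusted p of 7.3e-05 and an adjusted p of 0.214. In the round 2 controls 55 of the 65 genes (84.6%) had the same sign, against 67.0% of all genes. There the castes were on different runs, so caste and run cannot be told apart. Among the opposites in round 2 was CCHa1, with a log2 difference of -0.27 (adjusted p = 0.415), and Acadvl, at 0.47 (adjusted p = 0.0333). Others with the opposite sign there were nSyb (-0.38), Atpalpha (-0.33) and trc (-0.28).

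**Figure D5:**
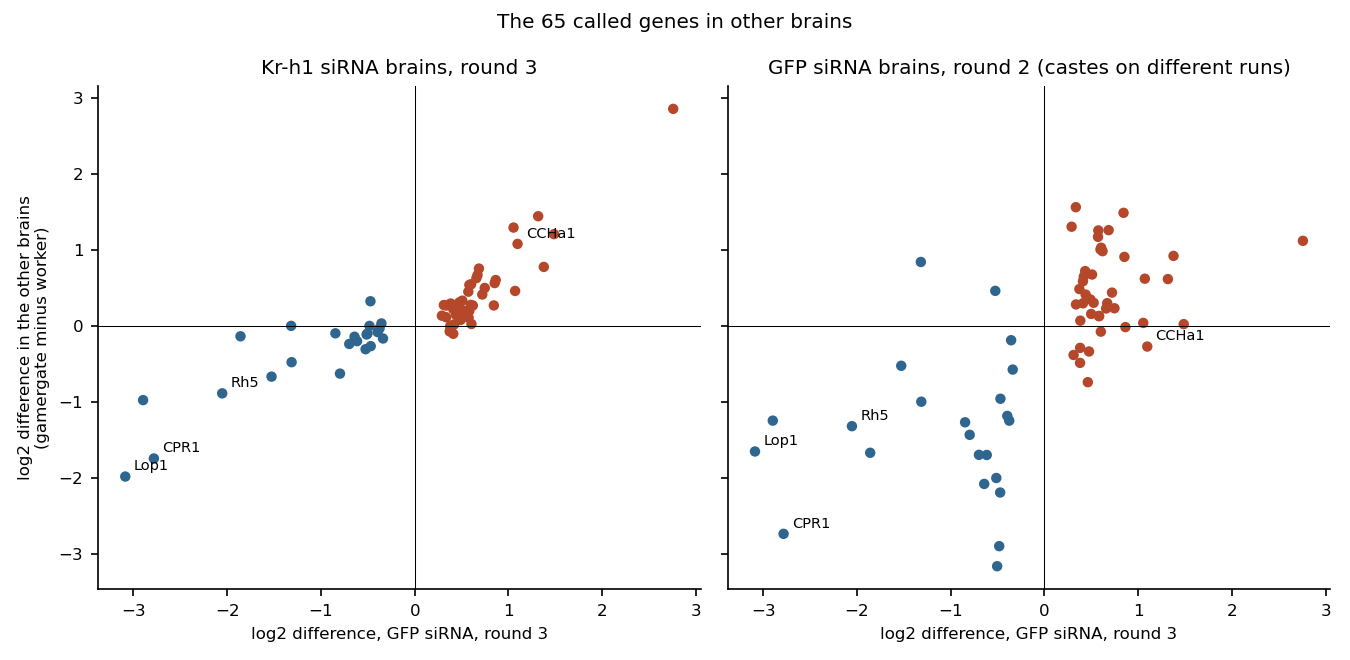
For the 65 called genes, the log2 difference (gamergate minus worker) in the round 3 controls is on the horizontal axis, and that in the Kr-h1 siRNA brains of round 3 (left) and in the control brains of round 2 (right) on the vertical axis. In the left panel 58 genes and in the right panel 55 genes lie in the quadrants of equal sign, and CCHa1 is near 1.09 on the left and below 0 on the right.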

How the data were processed

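The deposited values are FPKM, made by the authors, for 14001 genes in 32 libraries. Per the submitters' processing notes, the tools included STAR, featureCounts, bcl2fastq and DESeq2, with no version or role stated. Not given in the sources used here are the genome build, the depth scaling and whether counting used strand. Names came from RefSeq assembly Hsal_v8.6, where 13989 identifiers matched and 4117 had a symbol.

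Whole reads were recovered for 98.5% of 12692 detected genes, within 0.02 reads, against 1.4% of 500 genes with altered scales. Even numbers made up 55.1% of them, so a read may not be an independent fragment. limma 3.58.1 in R 4.3.3 fitted log2(FPKM + 0.5) of the 15 round 3 libraries as 4 group means with a variance trend. The Kr-h1 siRNA libraries lend only spread to the control contrast. The filter was FPKM of at least 1 in 3 of 8 control libraries, and the fit was tested on simulated data. Kr-h1 was tested with SciPy 1.17.1.

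Libraries, gene panel and the 28 lists, from which 17 misassigned symbols were removed, were chosen with earlier results of these data known. Named genes are the panel, up to 15 called genes with a symbol per direction (15 rose and 9 fell), up to 6 called per list and, per direction, the 2 unnamed with the smallest p. List members with the largest differences and Vgn, jhamt, Arr1, Arr2 and apd-3l were added after their values were seen. No 2 libraries were identical, and Spearman correlations were 0.955 to 0.979 within castes.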

Additional observations from a re-analysis of the deposited data

Results flagged for a closer look

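Among 53 genes whose 5 gamergate values were checked for 1 brain far from the others, 3 were flagged, and chance flags about 1 in 20. ILP-2 was flagged for gamergate 9, at 6.85 FPKM with the other gamergates at 11.0 to 11.8 FPKM, where the gap took 0.837 of the whole range. Lop2 was flagged for gamergate 5, at 2.25 FPKM with the others at 30.1 to 40.2 FPKM, with a share of 0.732. Mob2 was flagged for gamergate 9, at 45.6 FPKM with the others at 37.1 to 38.8 FPKM, with a share of 0.798.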

How the results depend on the processing

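The 65 calls changed with most settings. The count was 29 (14 higher, 15 lower) with no filter on low values, 137 with a mean FPKM of at least 5, 15 with the 8 control libraries alone, 130 with all 32 libraries and a batch term, 278 with array weights, 102 with limma voom on recovered reads, 17 with the gene span trend removed (8 higher, 9 lower) and 37 with the transcript length trend removed, which was added after seeing the data. It stayed within 1.5 times for pseudocounts 0.1 and 1 (56 and 64), median-of-ratios scaling (64, 46 of them higher), quantile normalization (95, 48 of them higher) and robust eBayes (97). Leaving out 1 brain gave 1 to 167. The causes were not tested. Replicate numbers were not shown to pair brains, with same-number correlations of -0.15, -0.21 and 0.34, and the replicate block gave 33. The test of the siRNA difference called 1581 genes with all 32 libraries, 1 with no filter and 0 in the other fits that hold both siRNAs, those without 1 brain included. The Kr-h1 difference missed the threshold with pseudocounts 0.1 and 1. On leaving out 1 brain it lay between -0.04 and 0.16, where no test could pass, since the smallest exact p is 0.0571 without 1 gamergate and 0.0952 without 1 worker. Over 610 alternative values of 28 called named genes, direction and call held in 341, the call was lost in 269 and none reversed. As the castes did not overlap for these genes, no fit with another pseudocount or without 1 brain could have reversed one. Across pseudocounts, filters and scalings, 82.8% to 91.1% of called genes kept their sign in the Kr-h1 siRNA brains and 75.9% to 89.5% in round 2. Of the 15 genes that the 8 control libraries alone called, 100% and 93.3% did, a comparison added after seeing the data. List medians that turned sign included synaptic, glial and oxidative phosphorylation genes, at 0.00, -0.01 and 0.09 with the span trend removed. With 3 workers, a single brain can decide a call.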
